A study of Mus musculus with 12 samples.

Results

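The genes described here are 37 genes of lipogenesis and cholesterol synthesis, 37 of the 23185 named genes measured on 12 microarrays of mouse gastrocnemius, the large calf muscle. They were chosen by name, as the probe sets annotated to a fixed list, and every one of them had a probe set. Of these, 6 are regulators, 12 are enzymes of fatty acid synthesis, elongation and desaturation (targets of the SREBP1c type), 5 are enzymes of glycerolipid assembly, and 14 are enzymes of cholesterol synthesis (targets of the SREBP2 type). All mice were of the strain BKS.Cg-Dock7m +/+ Leprdb/J, known as db/db, which carry a leptin receptor mutation that leads to obesity and diabetes, and were 12 weeks old. They were killed 1 week after receiving adenovirus that encodes short hairpin RNA (shRNA), and no untreated or lean animals were part of the comparison. Control animals received control shRNA virus only. The LCN13 and TSC22D4 groups each received equal amounts of the named virus and of control virus, and the TSC22D4+LCN13 group received equal amounts of both target viruses and no control virus, so that the total dose was the same throughout. Each group had 7 treated animals, of which 3 that the submitters called representative were placed on arrays, 1 animal an array. The sources used here do not say where the virus was injected or which tissues it reached.

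Sterol regulatory element-binding proteins (SREBPs) are transcription factors made as membrane proteins of the endoplasmic reticulum. SCAP escorts them to the Golgi, where they are cleaved, and INSIG proteins hold SCAP back when sterols are plentiful. SREBP-1c, from Srebf1, drives mainly the genes of fatty acid synthesis and responds to insulin, while SREBP-2, from Srebf2, drives mainly the cholesterol pathway. ChREBP, from Mlxipl, activates lipogenic genes when glucose is high. Muscle makes far less new fat than liver or adipose tissue, and a calf muscle sample also holds fat cells, tendon, nerve, vessels and macrophages.

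Levels are log2 values normalized by RMA, so a difference of 1 is a 2-fold difference. RMA makes the arrays' distributions equal, and values of different genes are not compared as amounts because probe sets differ in brightness. The 8 muscle markers measured had mean levels between 13.17 and 14.06, close to the highest value on any array of 14.09. Array medians were 5.45, and no detection calls were used, so a level near that value is not shown to lie above background. The targeted transcripts were examined in every array. Tsc22d4 measured 6.54, 6.43 and 6.79 in control animals 18, 19 and 20, and 6.87, 6.86 and 6.75 in TSC22D4 animals 25, 26 and 27. In LCN13 animals 21, 22 and 23 it measured 6.81, 7.00 and 6.62, and in TSC22D4+LCN13 animals 29, 30 and 32 it measured 7.01, 6.72 and 6.71. The RNA was thus not lower in the arrays labelled TSC22D4 than in control (log2 difference 0.24, SE 0.121, limma adjusted p = 0.619). The Lcn13 transcript, now named Obp2a, measured between 4.90 and 4.97 on all 12 arrays, near the lowest value of 4.78, which allows no statement on its knockdown. Groups are therefore named by the labelled virus, and directions below follow those labels. In bulk tissue, fewer cells of a type and less RNA per cell cannot be told apart.

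The promoters of a few genes that the results turn on are shown first. The split into SREBP1c-type and SREBP2-type targets was made by pathway and not by promoter sites. Windows of 250 bases before to 50 bases after the annotated start were taken from RefSeq (GRCm38.p6), and 29 of the 37 genes had at least 1 window. Each is written 5′ to 3′ on the gene's strand, and capitals mark a 9-letter sterol regulatory element (TCACNCCAC), an E-box (CACGTG) or a CCAAT box, on either strand.

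Hmgcs1, chr13:119690101-119690400, plus strand: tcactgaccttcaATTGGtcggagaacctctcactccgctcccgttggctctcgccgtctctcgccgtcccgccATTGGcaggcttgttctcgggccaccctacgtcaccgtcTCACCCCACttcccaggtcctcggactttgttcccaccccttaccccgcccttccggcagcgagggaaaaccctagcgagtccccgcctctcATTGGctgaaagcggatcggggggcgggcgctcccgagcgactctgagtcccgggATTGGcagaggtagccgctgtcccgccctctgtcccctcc

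Mvd, chr8:122443373-122443672, minus strand: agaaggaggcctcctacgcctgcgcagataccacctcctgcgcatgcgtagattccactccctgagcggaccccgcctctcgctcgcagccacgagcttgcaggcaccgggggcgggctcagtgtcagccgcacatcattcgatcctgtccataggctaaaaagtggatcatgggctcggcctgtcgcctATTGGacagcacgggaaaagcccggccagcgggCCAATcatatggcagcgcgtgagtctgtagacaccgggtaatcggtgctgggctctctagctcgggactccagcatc

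Elovl5, chr9:77917115-77917414, plus strand: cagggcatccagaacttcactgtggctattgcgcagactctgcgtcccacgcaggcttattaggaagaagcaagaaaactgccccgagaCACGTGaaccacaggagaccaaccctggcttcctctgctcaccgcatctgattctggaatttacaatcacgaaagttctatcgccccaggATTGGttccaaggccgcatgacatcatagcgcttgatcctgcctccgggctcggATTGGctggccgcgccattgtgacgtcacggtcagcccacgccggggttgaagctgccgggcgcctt

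Fasn, chr11:120824498-120824797, minus strand: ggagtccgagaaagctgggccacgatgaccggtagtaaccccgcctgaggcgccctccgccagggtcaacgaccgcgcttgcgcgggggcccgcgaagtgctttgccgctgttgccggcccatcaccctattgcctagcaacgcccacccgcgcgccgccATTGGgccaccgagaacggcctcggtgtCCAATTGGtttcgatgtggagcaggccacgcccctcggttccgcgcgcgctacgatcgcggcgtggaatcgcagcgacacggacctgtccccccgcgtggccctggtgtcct

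Hmgcs1, which makes the precursor of mevalonate, is shown because it is the only cholesterol enzyme whose window held the 9-letter element, beginning 137 bases before the start. Mvd and Elovl5 are shown because they passed the test in the group with both target viruses. The Elovl5 window held an E-box, a motif that SREBP-1 can also bind, 161 bases before the start. Fasn is shown as the member with the widest range over the arrays. Its window held neither the 9-letter element nor CACGTG, and CCAAT boxes on opposite strands overlap in it. Both strands were searched for all motifs. The 9-letter element was present in Hmgcs1 and Mlxipl, against 1.44% of all 27025 genes with a window, and a stricter 10-letter form, with A placed before it and C for N, in 0 members, against 0.0999% of genes. CACGTG was present in Elovl5 among 9 fatty acid enzymes and in Dhcr7, Hsd17b7 and Sc5d among 11 cholesterol enzymes, against 8.09% of genes. It was also present in Insig1, Mlxipl and Scap. The CCAAT box, bound by NF-Y, was in 11 of 11 cholesterol enzymes with a window and in 6 of 9 fatty acid enzymes, against 41.1% of genes. The GC box GGGCGG, bound by Sp1, was in 10 of 11 cholesterol enzymes and 4 of 9 fatty acid enzymes, against 38.2% of genes. These are matches of letters in a fixed window and do not show binding.

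Across the 12 animals the fatty acid enzymes varied much more than the cholesterol enzymes. The median range from the lowest to the highest array was 0.94 for the 12 fatty acid enzymes, 0.81 for the 5 glycerolipid enzymes, 0.44 for the 6 regulators and 0.36 for the 14 cholesterol enzymes, against 0.25 for all genes. The widest ranges belonged to fatty acid synthase Fasn, at 1.68, and to the stearoyl-CoA desaturases Scd2 and Scd1, at 1.67 and 1.36. The narrowest belonged to the cholesterol enzymes Lss, which closes the sterol rings, at 0.13, and Cyp51, which demethylates lanosterol, at 0.16. Among members with a mean level above the 75th percentile of all genes, where background matters less, the median range was 0.94 for 11 fatty acid enzymes and 0.40 for 4 cholesterol enzymes, against 0.47 for all genes there. Of the cholesterol enzymes, Idi1, Sqle and Cyp51 had mean levels below the array median, and their small ranges are not shown to be those of an expressed gene.

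**Figure D1:**
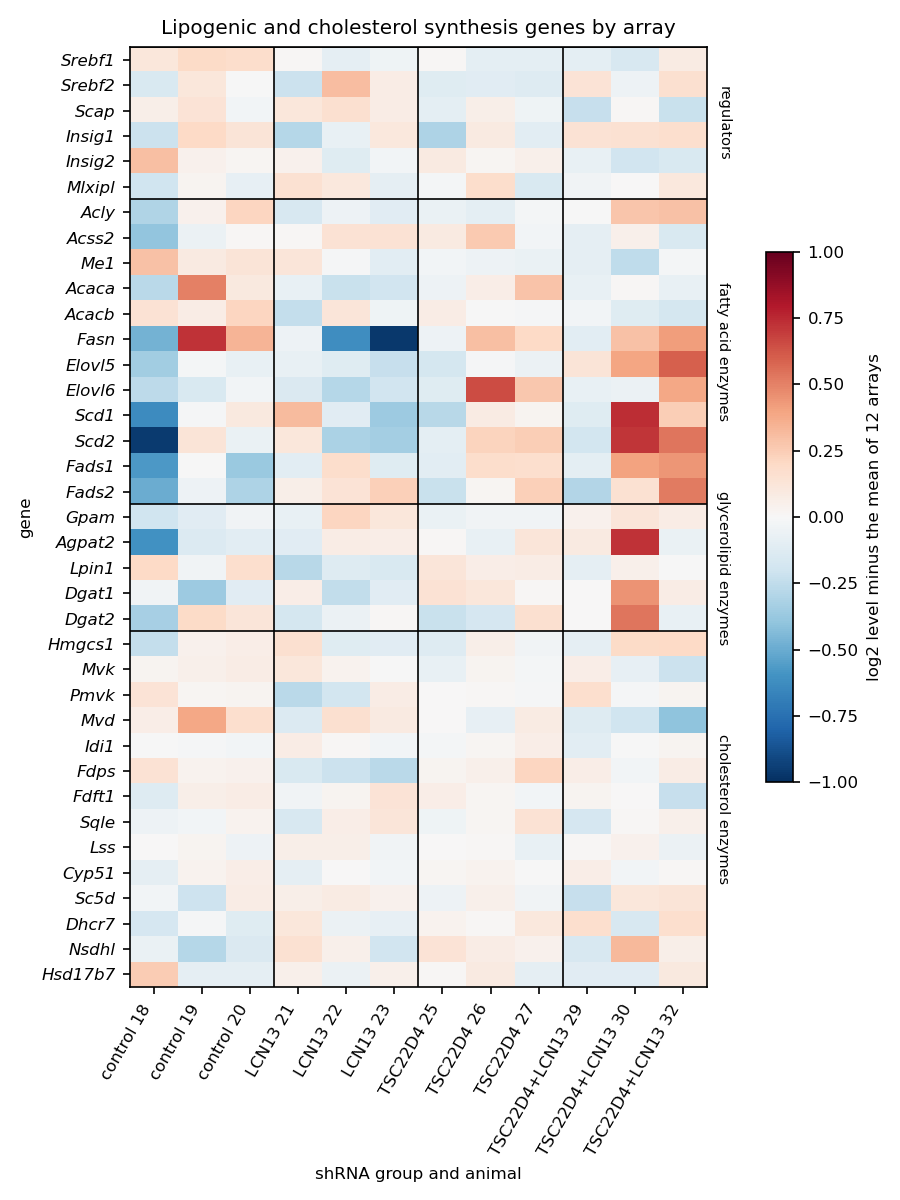
Level of each of the 37 genes (rows, grouped by role) on each of the 12 arrays (columns, by shRNA group and animal), as the log2 level minus the gene's mean over the 12 arrays, with the colour scale cut at 1 in either direction. The fatty acid block holds the strongest colours, with control animal 18 low and TSC22D4+LCN13 animals 30 and 32 high, and the cholesterol block is mostly pale.

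Single animals stood out within groups. Control animal 18 was the lowest of the 12 for Acly, Acss2, Acaca, Elovl5, Scd1, Scd2, Fads1 and Fads2, and its median deviation from the 12-array mean over the fatty acid enzymes was -0.37, against 0.02 and 0.06 in control animals 19 and 20. In LCN13 animals 21, 22 and 23 this median was -0.07, -0.08 and -0.15, and in TSC22D4 animals 25, 26 and 27 it was -0.09, 0.07 and 0.10. In TSC22D4+LCN13 animals 29, 30 and 32 it was -0.09, 0.21 and 0.34. For the 14 cholesterol enzymes the same median stayed between -0.04 and 0.05 on all arrays. TSC22D4+LCN13 animal 30 also stood apart in markers of other cells. Its adipocyte score, the mean deviation of 6 of 8 listed markers, was 0.84 and its macrophage score, over 5 of 5 markers, was 0.75, each the highest of the 12. LCN13 animal 22 had the highest hepatocyte score, 1.11 over 8 of 9 markers, and control animals 18 and 20 had the lowest tendon scores, -0.95 and -1.06 over 6 of 6 markers. None of the adipocyte, macrophage or tendon markers had a mean below 5.45, the array median over all probe sets, whereas 3 of 8 hepatocyte markers and, of 5 Schwann cell markers, Mag, Pmp2 and Ncmap did.

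The log2 summed level of the macrophage markers ran from 9.12 to 9.28 in control, from 9.15 to 9.63 in LCN13, from 9.33 to 9.51 in TSC22D4 and from 9.62 to 10.32 in TSC22D4+LCN13 arrays. The TSC22D4 group and the group with both target viruses thus each lay above all control arrays. For the adipocyte markers it ran from 12.87 to 13.28, from 13.30 to 13.39, from 12.85 to 13.19 and from 13.05 to 13.95 in the same order of groups. For the tendon markers it ran from 12.24 to 13.26, from 13.34 to 13.57, from 12.82 to 13.56 and from 13.26 to 13.75. For the hepatocyte markers it ran from 8.76 to 10.53, from 9.77 to 11.87, from 8.82 to 9.32 and from 8.68 to 11.17. For the Schwann cell markers it ran from 7.84 to 7.92, from 7.75 to 7.91, from 7.86 to 7.88 and from 7.83 to 8.16. The LCN13 group lay above all control arrays for the adipocyte and tendon markers. Of 111 relations between a member and the adipocyte, hepatocyte or Schwann cell score over the 12 animals, 0 passed after adjustment (permutation test) and 12 had an unadjusted p below 0.05. The strongest was that of Fdps, which makes farnesyl diphosphate, with the hepatocyte score (Pearson's r = -0.77, p = 0.00367, adjusted p = 0.291, Spearman's rho = -0.84). Its r was -0.52 without the 2 animals farthest from the median score. Relations of the members with the tendon and macrophage scores were not computed.

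Each virus group was compared with control to ask which of these genes differed in muscle after TSC22D4 shRNA, LCN13 shRNA or both. These 3 comparisons share the same control arrays and are not independent. Over the fatty acid enzymes the median log2 difference from control was 0.09 for TSC22D4, -0.03 for LCN13 and 0.22 for TSC22D4+LCN13. Over the cholesterol enzymes it was 0.01, 0.02 and -0.01, over the glycerolipid enzymes 0.07, 0.07 and 0.20, and over the regulators -0.10, -0.03 and -0.05. Medians over all genes lay within 0.01 of 0. The fatty acid medians depended on single animals. Without control animal 18 they were -0.07, -0.11 and 0.12, and for TSC22D4 the value was 0.21 without control animal 19, 0.18 without control animal 20, 0.17 without TSC22D4 animal 25 and 0.04 without TSC22D4 animal 26. For LCN13 it was 0.03 without control animal 20, and for TSC22D4+LCN13 it was 0.14 without TSC22D4+LCN13 animal 32.

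**Figure D2:**
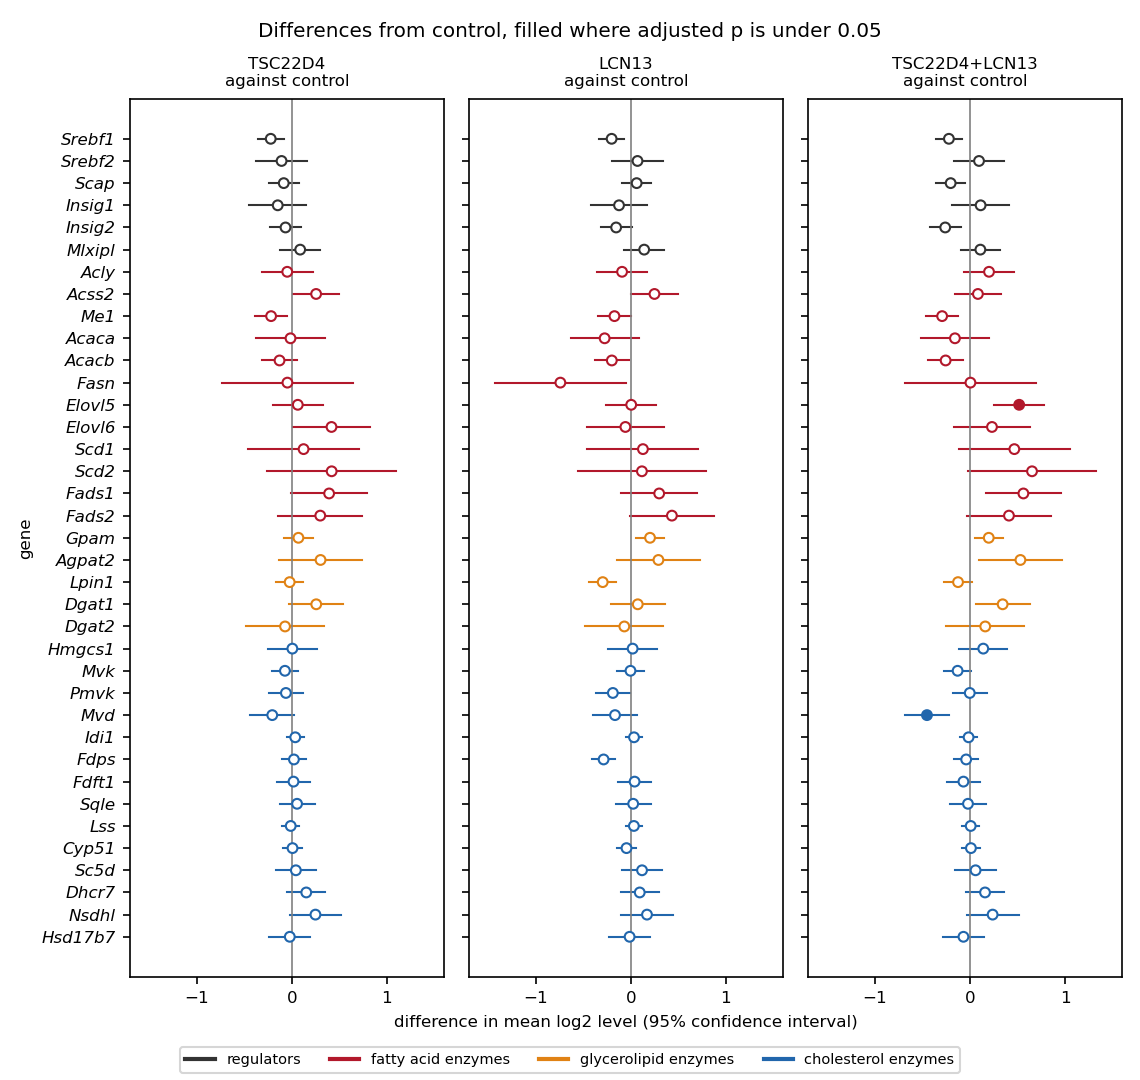
Difference in mean log2 level from control for each of the 37 genes (rows, coloured by role) in the 3 shRNA groups, with 95% confidence intervals from the limma fit and filled points where the adjusted p was under 0.05. Filled points appear only for Elovl5 (0.52) and Mvd (-0.45), both with TSC22D4+LCN13, and the intervals are widest for Fasn, Scd1 and Scd2.

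After TSC22D4 shRNA 0 of the 37 members passed in limma at an adjusted p of 0.05, against 0.336% of all genes, and 4 had an unadjusted p below 0.05 (10.8% of members, against 9.26% of genes). The groups did not overlap for 9 members, 24.3%, against 16.9% of all genes. Of these, Agpat2 and Dgat1, which add fatty acids in glycerolipid assembly, and the sterol enzymes Dhcr7 and Nsdhl were higher in every TSC22D4 animal than in every control animal, as were 7.8% of all genes. Srebf1, Me1, Acacb, Mvk and Pmvk were lower, as were 9.15% of all genes. The largest differences from control were 0.42 (SE 0.302) for Scd2, 0.42 (SE 0.181) for Elovl6, which elongates palmitate, and 0.39 (SE 0.178) for the desaturase Fads1, with limma adjusted p-values of 0.778, 0.516 and 0.547. Elovl6 measured 5.64, 5.75 and 5.87 in control and 5.78, 6.55 and 6.17 in TSC22D4 animals. Its LCN13 animals measured 5.76, 5.61 and 5.71 and its TSC22D4+LCN13 animals 5.83, 5.84 and 6.28. The highest value was that of TSC22D4 animal 26, and animal 25 lay within the control range.

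After LCN13 shRNA 0 of the 37 genes passed, against 0.85% of all genes, and 9 had an unadjusted p below 0.05 (24.3% of members, against 12.4% of genes). The groups did not overlap for Srebf1, Fads2, Lpin1 and Fdps, 4 members or 10.8%, against 18.8% of all genes. Fads2 was the one that lay higher, as did 9.74% of all genes, and the other 3 lay lower, as did 9.02%. Fdps was nearest to the threshold. It measured 5.64, 5.53 and 5.54 in control, 5.34, 5.28 and 5.23 in LCN13, 5.52, 5.55 and 5.71 in TSC22D4 and 5.56, 5.46 and 5.56 in TSC22D4+LCN13 animals. All LCN13 animals lay below all 9 others, at levels around the array median. The mean was 5.57 ± 0.0615 (SD, n = 3) in control and 5.28 ± 0.0552 (SD, n = 3) in LCN13 arrays, so that LCN13 arrays differed by -0.29 (log2, SE 0.0549, limma adjusted p = 0.0503). With 1 array left out it passed in 2 of 12 fits, with an adjusted p of 0.0283 without TSC22D4 animal 27 and 0.0441 without TSC22D4+LCN13 animal 30. The hepatocyte score was highest in LCN13 animal 22, and with it as a covariate the difference was -0.23 (limma adjusted p = 0.121). Over all alternative settings the Fdps difference ran from -0.31 to -0.23, with limma adjusted p-values from 0.027 to 0.541.

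Lpin1, a phosphatidate phosphatase of glycerolipid assembly, measured 11.16, 10.92 and 11.12 in control and 10.68, 10.83 and 10.80 in LCN13 animals. It measured 11.08, 11.02 and 11.03 in TSC22D4 and 10.87, 11.01 and 10.96 in TSC22D4+LCN13 animals. The LCN13 animals were again the lowest of the 12. The difference from control was -0.30 (SE 0.0642, limma adjusted p = 0.0801), and it passed without control animal 19 (-0.37, adjusted p = 0.021). Fasn measured 8.33, 9.52 and 9.14 in control and 8.75, 8.18 and 7.84 in LCN13 animals, which overlap. It measured 8.75, 9.10 and 9.00 in TSC22D4 and 8.70, 9.10 and 9.22 in TSC22D4+LCN13 animals. The Fasn difference of -0.74 for LCN13 was the largest of any member in any comparison with control, with an interval from -1.43 to -0.05 and a limma adjusted p of 0.352. Fads2, the desaturase of the entry step to polyunsaturated fatty acids, was higher by 0.43 (SE 0.197, limma adjusted p = 0.412) than in control, 7.83 ± 0.0911 against 7.40 ± 0.226 (SD, n = 3).

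With both target viruses 2 of the 37 genes passed against control in limma, 5.41%, against 4.34% of all genes, so that the share of members was close to the background. An unadjusted p below 0.05 was found for 11 members, 29.7%, against 20.4% of all genes. Elovl5, the elongase of polyunsaturated fatty acids, rose, against 1.72% of all genes that rose. Mvd, which makes isopentenyl diphosphate from mevalonate diphosphate, fell, against 2.62% that fell. Elovl5 measured 7.58, 7.90 and 7.85 in control, 7.84, 7.80 and 7.69 in LCN13, 7.74, 7.91 and 7.86 in TSC22D4 and 8.05, 8.31 and 8.52 in TSC22D4+LCN13 animals. The group with both viruses lay above all 9 other animals, which overlapped among themselves. Its mean was 8.29 ± 0.233 against 7.78 ± 0.175 in control (SD, n = 3), a rise of 1.43-fold (log2 difference 0.52, SE 0.117, interval 0.26 to 0.78, limma adjusted p = 0.0404). With 1 array left out the call did not hold in 10 of 12 fits, all but those without LCN13 animal 21 or TSC22D4+LCN13 animal 29, with log2 differences between 0.41 and 0.64 and a largest adjusted p of 0.106 without control animal 18. With the macrophage score as a covariate the difference was 0.47 (adjusted p = 0.273), and it was 0.30 with that of tendon markers (adjusted p = 0.463). These covariates were added after the data were seen. Every macrophage score with both viruses lay above every control score, so that covariate and the group cannot be told apart. The call was also lost with the adipocyte score (adjusted p = 0.0685), the Schwann cell score (adjusted p = 0.115) and without both control animal 18 and TSC22D4+LCN13 animal 30 (0.41, adjusted p = 0.156).

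Mvd measured 6.20, 6.52 and 6.30 in control, 6.002, 6.30 and 6.23 in LCN13, 6.14, 6.06 and 6.21 in TSC22D4 and 6.01, 5.93 and 5.73 in TSC22D4+LCN13 animals. All animals with both viruses lay below all control animals, and animal 29 lay within the range of the LCN13 group. The mean was 5.89 ± 0.143 against 6.34 ± 0.162 in control (SD, n = 3), 1.37-fold lower (log2 difference -0.45, SE 0.104, interval -0.68 to -0.22, limma adjusted p = 0.0424). The differences from control were -0.21 for TSC22D4 and -0.17 for LCN13, with limma adjusted p-values of 0.609 and 0.601. The call with both viruses held in 3 of 12 fits with 1 array left out, those without LCN13 animal 21, LCN13 animal 22 or TSC22D4+LCN13 animal 29. The largest adjusted p was 0.115, without TSC22D4+LCN13 animal 32. With the macrophage score as a covariate the difference was -0.38 (adjusted p = 0.306) and with the tendon score -0.54 (adjusted p = 0.202). The call was also lost with the adipocyte score (adjusted p = 0.0768), with the Schwann cell score (adjusted p = 0.0966) and without both control animal 18 and TSC22D4+LCN13 animal 30 (adjusted p = 0.0665).

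**Figure D3:**
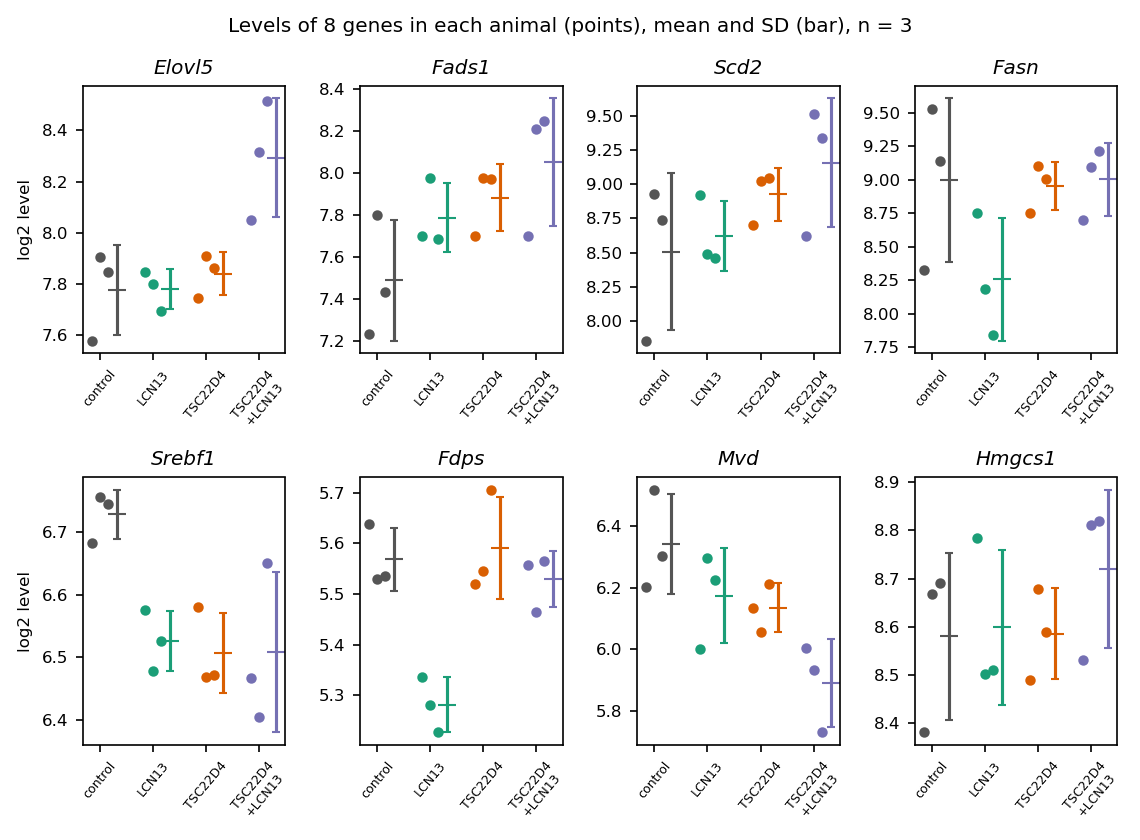
Log2 level of 8 of the genes in each animal (points) by shRNA group, with the group mean and SD (bars, n = 3). The TSC22D4+LCN13 animals lie highest for Elovl5, the LCN13 animals lie lowest for Fdps, and the control animals lie highest for Srebf1.

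In the same comparison the groups did not overlap for 9 members, 24.3%, against 23.7% of all genes. Elovl5, Gpam, Agpat2 and Dgat1 were higher and Srebf1, Insig2, Me1, Acacb and Mvd lower in every animal with both viruses, against 9.48% of all genes higher and 14.3% lower. Agpat2 measured 8.31, 8.78 and 8.80 in control and 9.00, 9.63 and 8.85 in TSC22D4+LCN13 animals, a difference of 0.53 (SE 0.194, limma adjusted p = 0.157). Its highest value was that of animal 30, which also had the highest adipocyte score. Fads1, which catalyses a later desaturation of polyunsaturated fatty acids, measured 7.23, 7.80 and 7.43 in control and 7.70, 8.21 and 8.25 in TSC22D4+LCN13 animals, and these groups overlapped. Its difference was 0.56 (SE 0.178, limma adjusted p = 0.11). Scd2 differed by 0.65 (SE 0.302, adjusted p = 0.261) and Scd1 by 0.47 (SE 0.261, adjusted p = 0.359). Whether the probes of these 2 close paralogs can bind each other's transcript is not said in the sources used here.

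Me1, the cytosolic malic enzyme that supplies NADPH for fat synthesis, was on the other side of control. It measured 11.35, 11.14 and 11.18 in control, 11.17, 11.04 and 10.95 in LCN13, 11.03, 11.00 and 10.99 in TSC22D4 and 10.96, 10.80 and 11.04 in TSC22D4+LCN13 animals. Its difference with both viruses was -0.29 (SE 0.0754, limma adjusted p = 0.0614). Acacb, the acetyl-CoA carboxylase whose product limits fatty acid entry into mitochondria, differed by -0.26 (SE 0.0813, adjusted p = 0.112). It measured 10.87, 10.80 and 10.94 in control and 10.69, 10.60 and 10.54 in TSC22D4+LCN13 animals. The number of members past the threshold in this comparison ran from 0 to 6 over the alternative settings. It was 5 without LCN13 animal 21 (Me1, Acacb, Elovl5, Gpam and Mvd), 3 without TSC22D4+LCN13 animal 29 (Elovl5, Fads1 and Mvd), 1 without LCN13 animal 22 (Mvd), TSC22D4+LCN13 animal 30 (Scap) or TSC22D4+LCN13 animal 32 (Srebf1), and 0 without any one of the other 7 animals.

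Among the regulators no member passed in any comparison. Srebf1 measured 6.68, 6.76 and 6.75 in control, 6.58, 6.48 and 6.53 in LCN13, 6.58, 6.47 and 6.47 in TSC22D4 and 6.47, 6.41 and 6.65 in TSC22D4+LCN13 animals. The control animals were the highest of the 12. The differences from control were -0.20 for LCN13, -0.22 for TSC22D4 and -0.22 for TSC22D4+LCN13 (SE 0.0601 each), with limma adjusted p-values of 0.182, 0.223 and 0.0715. Without TSC22D4+LCN13 animal 32, the highest of its group, the last of these was -0.29 (adjusted p = 0.0199). Which Srebf1 isoforms the probe set detects is not said in the sources used here. Srebf2 differed from control by 0.07, -0.11 and 0.10 in the same order (SE 0.118), and its values lay between 7.59 and 8.11. Insig2 measured 9.74, 9.47 and 9.45 in control and 9.36, 9.24 and 9.28 in TSC22D4+LCN13 animals, a difference of -0.26 (SE 0.0729, limma adjusted p = 0.0784). Scap measured 7.90, 7.95 and 7.86 in LCN13 and 7.56, 7.80 and 7.56 in TSC22D4+LCN13 animals. Scap was lower by 0.26 with both viruses than with LCN13 virus alone (log2 difference -0.26, SE 0.0697, limma adjusted p = 0.0661), and it passed without TSC22D4+LCN13 animal 30 (-0.34, adjusted p = 0.0136). Insig1 lay between 7.37 and 7.88 and Mlxipl between 9.60 and 9.98, with overlapping control and virus groups.

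The remaining enzymes did not pass in any comparison. Acly, which makes cytosolic acetyl-CoA from citrate, lay between 7.44 and 8.04, Acss2, which makes it from acetate, between 9.17 and 9.83, and Acaca, the cytosolic acetyl-CoA carboxylase, between 7.06 and 7.82. Gpam, which starts glycerolipid assembly, measured 10.57, 10.66 and 10.74 in control, 10.71, 10.99 and 10.89 in LCN13, 10.71, 10.74 and 10.74 in TSC22D4 and 10.82, 10.90 and 10.85 in TSC22D4+LCN13 animals. Its difference was 0.20 both for LCN13 and for TSC22D4+LCN13 (SE 0.0663), with limma adjusted p-values of 0.222 and 0.125. Dgat1 and Dgat2, which both catalyse the last step to triglyceride, lay between 7.56 and 8.37 and between 10.18 and 11.05. Among the cholesterol enzymes, Hmgcs1 lay between 8.38 and 8.82, the kinase Mvk between 5.99 and 6.32, the kinase Pmvk between 5.38 and 5.81 and squalene synthase Fdft1 between 10.99 and 11.35. The late sterol enzymes Sc5d, Dhcr7, Nsdhl and Hsd17b7 lay between 8.58 and 8.94, between 5.68 and 6.02, between 7.65 and 8.26 and between 6.64 and 7.01. Idi1, Sqle, Lss and Cyp51 lay between 5.16 and 5.72 on every array. Their differences from control did not exceed 0.06 in size.

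The group with both target viruses was also set against each single group. Against TSC22D4, 0 of the 37 genes passed, and of all genes 0 passed (0%). An unadjusted p below 0.05 was found for 3 members, 8.11%, against 2434 of all genes, 10.5%. The groups did not overlap for 9 members, 24.3%, against 14.6% of all genes. Srebf2, Insig1, Acly, Elovl5 and Gpam were higher and Insig2, Acacb, Lpin1 and Mvd lower, against 5.87% of all genes higher and 8.76% lower. The largest differences were 0.46 for Elovl5 (SE 0.117, limma adjusted p = 0.262) and 0.34 for Scd1 (SE 0.261, adjusted p = 0.7). Against LCN13, 2 of the 37 genes passed, 5.41%, against 4.21% of all genes, and 8 members had an unadjusted p below 0.05 (21.6%, against 20.9% of all genes). Both passed as higher, as 1.32% of all genes did, while 2.9% passed as lower. Elovl5 was higher by 0.51 (SE 0.117, limma adjusted p = 0.0429) and Fdps by 0.25 (SE 0.0549, adjusted p = 0.0392). The Elovl5 call held in 2 of 12 fits with 1 array left out, those without control animal 18 or TSC22D4+LCN13 animal 29, and reached an adjusted p of 0.107 without LCN13 animal 23. It was also lost with the adipocyte (adjusted p = 0.0505), hepatocyte (0.0894), Schwann cell (0.147) or macrophage (0.153) score as a covariate and without both control animal 18 and TSC22D4+LCN13 animal 30 (0.0567). With the adipocyte score and with those 2 animals left out Scap passed beside Fdps in its place (adjusted p = 0.0365 and 0.0221). The Fdps call held in 4, those without control animal 18, TSC22D4 animal 25, TSC22D4 animal 27 or TSC22D4+LCN13 animal 30, and reached 0.108 without TSC22D4+LCN13 animal 32. It was also lost with array weights (0.0579) and with the hepatocyte (0.118), tendon (0.0527) or macrophage (0.105) score. Without LCN13 animal 23 the one member past the threshold was the kinase Pmvk (0.29, adjusted p = 0.0435). In this comparison the groups did not overlap for 7 members, 18.9%, against 22.6% of all genes. Scap lay lower, as did 13.4% of all genes, and Insig1, Acly, Elovl5, Elovl6, Lpin1 and Fdps lay higher, as did 9.14%. Fasn was higher by 0.75 (SE 0.308, limma adjusted p = 0.205), and Acly by 0.29 (SE 0.119, adjusted p = 0.198).

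A test of the interaction asked whether the effect of TSC22D4 virus differed between animals that did and did not receive LCN13 virus, as the difference of TSC22D4+LCN13 and LCN13 minus the difference of TSC22D4 and control. It passed for 0 of the 37 genes in limma, against 0.125% of all genes. An unadjusted p below 0.05 was found for 4 members, 10.8%, against 9.57% of all genes. The 4 members were Srebf1, Acss2, Elovl5 and Fdps. The estimates were 0.20 for Srebf1 (SE 0.085, adjusted p = 0.486), -0.42 for Acss2 (SE 0.155, adjusted p = 0.414), 0.45 for Elovl5 (SE 0.166, adjusted p = 0.414) and 0.23 for Fdps (SE 0.0777, adjusted p = 0.376). The widest interval belonged to Fasn, from -0.18 to 1.77. A test of any difference among the 4 groups passed for Fdps alone, 2.7% of members, against 3.33% of all genes (limma adjusted p = 0.0357).

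Over the 12 animals some of these genes varied together. Of 666 pairs of members, 5 passed after adjustment (Pearson's r, permutation test with 100000 resamples). The strongest was that of Scd1 with Hmgcs1, a fatty acid and a cholesterol enzyme (r = 0.92, p = 1e-05, the smallest the resamples can give, adjusted p = 0.00666). Its Spearman's rho was 0.94 (p = 7e-05, adjusted p = 0.0466), and r was 0.92 without the 2 animals farthest from the median of Scd1. Scd2 with Hmgcs1 had r = 0.88 (p = 8e-05, adjusted p = 0.0266) and rho = 0.82 (p = 0.00192, adjusted p = 0.16). Scd1 with Scd2 had r = 0.90 (p = 0.00021, adjusted p = 0.0333) and rho = 0.83 (p = 0.00136, adjusted p = 0.156). Me1 with Agpat2 ran in opposite directions (r = -0.91, p = 0.00013, adjusted p = 0.0289), with rho = -0.84 (p = 0.0011, adjusted p = 0.156). Insig2 with Gpam did so too (r = -0.87, p = 0.00025, adjusted p = 0.0333), with rho = -0.85 (p = 0.00063, adjusted p = 0.156). Without the 2 animals farthest from the median of the first gene, r was 0.79 for Scd2 with Hmgcs1, 0.75 for Scd1 with Scd2, -0.80 for Me1 with Agpat2 and -0.82 for Insig2 with Gpam. With each animal's deviation from its group mean in place of its level, r was 0.91, 0.93, 0.91, -0.87 and -0.80 for Scd1 with Hmgcs1, Scd2 with Hmgcs1, Scd1 with Scd2, Me1 with Agpat2 and Insig2 with Gpam. Exact reordering within groups, which has 1296 orders, then gave no pair past the adjustment, with a smallest adjusted p of 0.171. The smallest p these orders can give is 0.00077, so a lone pair at that limit could not pass after adjustment over 666 pairs. The reordering therefore cannot decide whether these pairs vary together within groups. Within the fatty acid list the median r of 66 pairs was 0.33, and within the cholesterol list that of 91 pairs was -0.04. Control animal 18 and TSC22D4+LCN13 animal 30 lay at opposite ends of the Scd1 with Scd2 and the Me1 with Agpat2 pairs.

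**Figure D4:**
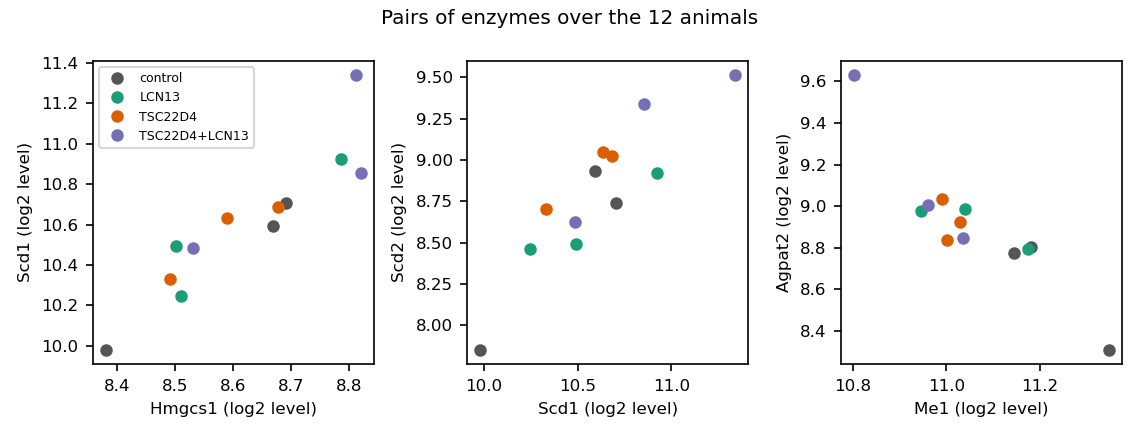
Log2 levels of 3 pairs of enzymes, each point 1 of the 12 animals, coloured by shRNA group. Scd1 increases with Hmgcs1 and with Scd2 over all groups (r = 0.92 and 0.90), whereas Agpat2 decreases with Me1 (r = -0.91).

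Other genes of the same pathways were taken from 4 lists. Of further cholesterol enzymes, 5 of 7 listed were measured. With both viruses against control 1 rose and 1 fell, against 1.72% of all genes that rose and 2.62% that fell. Ebp, the sterol isomerase, measured 5.92, 5.80 and 5.98 in control and 6.21, 6.50 and 6.21 in TSC22D4+LCN13 animals, which did not overlap. The difference was 0.41 (SE 0.0835, limma adjusted p = 0.0299), and it did not pass without control animal 18, 19 or 20 (adjusted p = 0.0713, 0.0854 and 0.059). With the macrophage score as a covariate the difference was 0.15 (adjusted p = 0.359), with the Schwann cell score it was 0.33 (adjusted p = 0.0831), and with the tendon score it was 0.41 (adjusted p = 0.243). Without both control animal 18 and TSC22D4+LCN13 animal 30 it was 0.32 (adjusted p = 0.076). Lbr, a nuclear envelope protein with sterol reductase activity, measured 9.05, 8.91 and 9.00 in control, 8.97, 9.12 and 9.12 in LCN13, 8.89, 8.85 and 8.88 in TSC22D4 and 8.46, 8.67 and 8.64 in TSC22D4+LCN13 animals. The group with both viruses was the lowest, 0.40 below control (log2 difference -0.40, SE 0.0617, limma adjusted p = 0.00958) and 0.48 below LCN13 (log2 difference -0.48, adjusted p = 0.00742). Both calls held whichever 1 of the 12 arrays was left out. Against control it did not pass with the tendon score (adjusted p = 0.166) or the macrophage score (adjusted p = 0.0669) as a covariate.

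Of genes of SREBP processing and degradation, 9 of 10 listed were measured. With both viruses 1 passed against control, Fbxw7, which fell, as did 2.62% of all genes. Fbxw7 is the ubiquitin ligase subunit that marks nuclear SREBPs and several other proteins for degradation. It measured 7.48, 7.49 and 7.46 in control, 7.43, 7.52 and 7.61 in LCN13, 7.30, 7.23 and 7.32 in TSC22D4 and 7.17, 7.04 and 7.07 in TSC22D4+LCN13 animals. The difference from control was -0.38 with both viruses (SE 0.0481, limma adjusted p = 0.00438) and -0.19 with TSC22D4 virus (adjusted p = 0.174). Against LCN13 the difference was -0.43 (adjusted p = 0.00567), and these calls with both viruses held whichever 1 of the 12 arrays was left out. Against control it did not pass with the tendon score (adjusted p = 0.109) or the macrophage score (adjusted p = 0.0739) as a covariate.

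Of a list of LXR genes, the partner receptor Rxra and genes of sterol handling, 11 of 13 were measured. After LCN13 shRNA 1 rose and 1 fell, where 0.85% of all genes passed. With both viruses 1 rose and 1 fell against control, where 1.72% of all genes rose and 2.62% fell. Mylip, a ubiquitin ligase induced by LXR that degrades lipoprotein receptors, measured 9.22, 9.24 and 9.28 in control, 8.44, 8.62 and 8.71 in LCN13, 8.94, 8.90 and 8.92 in TSC22D4 and 9.00, 9.15 and 8.95 in TSC22D4+LCN13 animals. The control animals were the highest and the LCN13 animals the lowest of the 12. The difference from control was -0.65 for LCN13 (SE 0.0682, limma adjusted p = 0.0029), -0.32 for TSC22D4 (adjusted p = 0.11) and -0.21 with both viruses (adjusted p = 0.115). Nceh1, a hydrolase of cholesteryl esters, measured 9.30, 9.41 and 9.61 in control, 9.99, 10.06 and 10.22 in LCN13, 9.70, 9.97 and 9.84 in TSC22D4 and 10.01, 10.05 and 10.01 in TSC22D4+LCN13 animals. It rose by 0.65 for LCN13 (SE 0.0903, limma adjusted p = 0.0129) and by 0.58 with both viruses (adjusted p = 0.00958), and its difference for TSC22D4 was 0.40 (adjusted p = 0.14). The 2 Nceh1 calls and the Mylip call for LCN13 held whichever 1 of the 12 arrays was left out. With the tendon score as a covariate none of the 3 passed, with adjusted p-values of 0.29 and 0.145 for Nceh1 and 0.121 for Mylip. Tendon scores of all LCN13 arrays lay above those of all control arrays, so for LCN13 the score and the group cannot be told apart. With the macrophage score the Nceh1 call for both viruses was lost (adjusted p = 0.106), and without both control animal 18 and TSC22D4+LCN13 animal 30 the adjusted p-values of Nceh1 were 0.0505 for LCN13 and 0.0522 for both viruses. Rxra, the partner receptor of LXR, fell with both viruses by 0.33 (SE 0.0652, limma adjusted p = 0.0242), a call lost without control animal 18 or 20 (adjusted p = 0.0741 and 0.0831). With the tendon, macrophage or Schwann cell score as a covariate the Rxra difference was -0.21, -0.22 or -0.25 (adjusted p = 0.341, 0.289 and 0.0528), and without both control animal 18 and TSC22D4+LCN13 animal 30 it was -0.24 (adjusted p = 0.0889). It measured 10.76, 10.62 and 10.72 in control and 10.45, 10.23 and 10.43 in TSC22D4+LCN13 animals.

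Of further genes of fatty acid and glycerolipid metabolism, 24 of 26 listed were measured. With both viruses against control 1 passed, where 4.34% of all genes did. The gene was Hsd17b12, a reductase of the fatty acid elongation cycle in which Elovl5 also acts. Its mean level over the 12 arrays was 5.78, near the array median of 5.45. Hsd17b12 measured 5.68, 5.69 and 5.69 in control, 5.61, 5.70 and 5.64 in LCN13, 5.70, 5.89 and 5.89 in TSC22D4 and 5.87, 5.99 and 6.07 in TSC22D4+LCN13 animals. It rose by 0.29 against control (SE 0.0607, limma adjusted p = 0.0323) and was 0.33 higher than with LCN13 alone (adjusted p = 0.0221). The call against control was lost without control animal 18, 19 or 20 or TSC22D4+LCN13 animal 30 or 32, with adjusted p-values from 0.0662 to 0.0915, and that against LCN13 without LCN13 animal 21 or 23 or TSC22D4+LCN13 animal 32, with 0.071, 0.0562 and 0.0638. Against control Hsd17b12 also did not pass with the adipocyte, Schwann cell, tendon or macrophage score (adjusted p = 0.0585, 0.0942, 0.375 and 0.212), and against LCN13 it did not with the Schwann cell or macrophage score (0.0835 and 0.0764). Without both control animal 18 and TSC22D4+LCN13 animal 30 the adjusted p-values were 0.128 and 0.0516. The macrophage markers Mrc1 and Adgre1 also rose in that comparison with control, by 0.81 (limma adjusted p = 0.02) and 0.49 (adjusted p = 0.0405). With 1 array left out the Mrc1 call was lost in 3 of 12 fits, those without control animal 18, 19 or 20 (adjusted p up to 0.0575), and the Adgre1 call in 10 of 12, all but those without LCN13 animal 21 or TSC22D4+LCN13 animal 29 (up to 0.113). With the tendon or Schwann cell score Mrc1 had adjusted p-values of 0.25 and 0.0614 and Adgre1 of 0.284 and 0.1, and without both control animal 18 and TSC22D4+LCN13 animal 30 they were 0.0857 and 0.112. The part of macrophages in the pathway results was not tested. In every TSC22D4+LCN13 array the macrophage score lay above that of every control and LCN13 array. The covariate fits given above therefore cannot tell the score and that group apart. For TSC22D4 shRNA alone and for the double group set against it, 0 genes of these 4 lists passed. Of all genes 0.336% and 0% did.

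**Figure D5:**
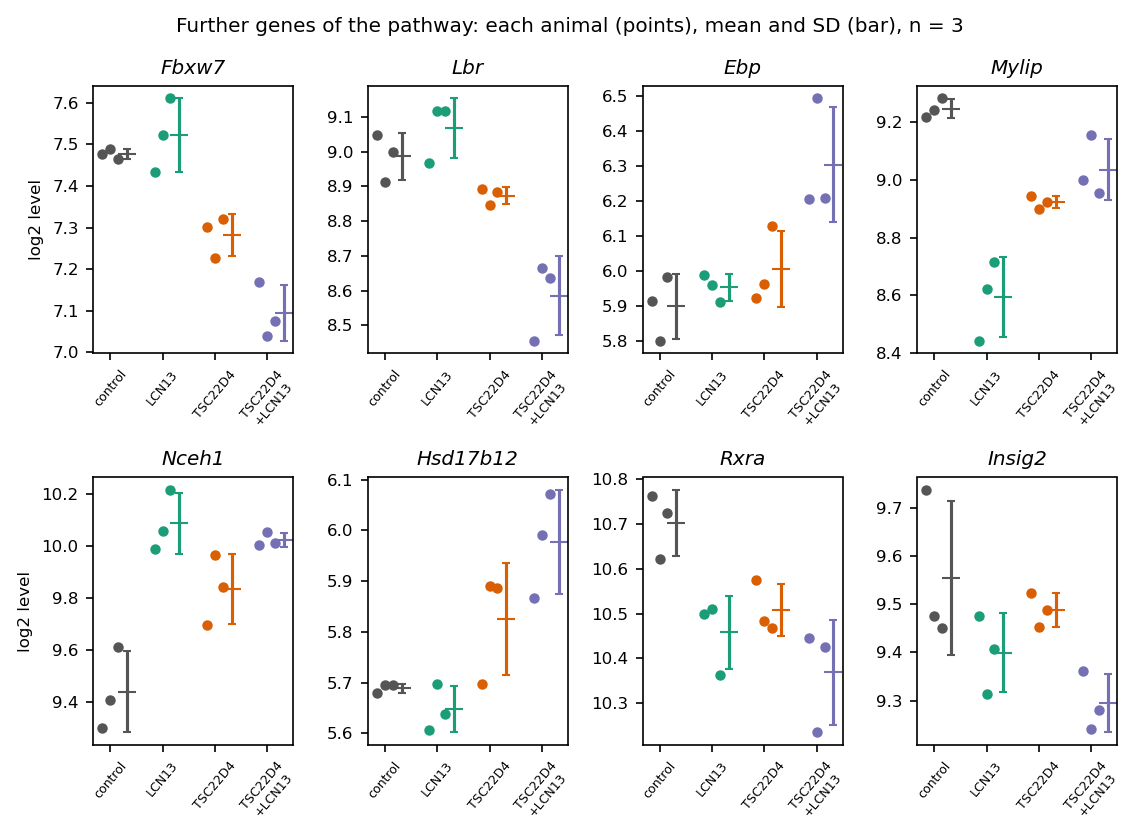
Log2 level of 7 further genes of the pathways and of the regulator Insig2 in each animal (points) by shRNA group, with the group mean and SD (bars, n = 3). Fbxw7 and Lbr are lowest in the TSC22D4+LCN13 animals, Mylip is lowest in the LCN13 animals, and Nceh1 is lowest in the control animals.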

How the data were processed

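Total RNA of gastrocnemius from 12 mice was measured on 1-colour Affymetrix arrays, 3 arrays in each of 4 groups taken from the labels. The authors deposited log2 levels of 25206 probe sets made with RMA, per the submitters' processing notes. RMA corrects background, makes the distributions of arrays equal and summarises the probes of a set, so a shift of most genes in 1 direction would not be seen. The sources used here do not give its version, the probe set definitions, the genome build or any batch. The platform annotation gave 1 gene symbol to 23185 probe sets, and the other 2021 (8.02%) entered an alternative only. Correlations between arrays lay between 0.99 and 0.998. The precision is limited by the number of arrays.

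limma 3.58.1 (lmFit, then eBayes, under R 4.3.3) modelled the log2 values of 12 arrays with 4 group means (8 residual and 1.69 prior degrees of freedom), in 6 comparisons and a test of any difference. Tests were two-sided, with Benjamini-Hochberg adjustment over 23185 genes and a threshold of 0.05. Intervals are 95% intervals of the fit. A marker score is the mean deviation of a list's genes from their 12-array means. Correlations used permutation tests in Python 3.11.15 with 100000 resamples, and exact reordering within groups. The steps were tested on simulated data. All 37 members may be named. Other listed genes may be named where they passed a comparison or were the 2 of their list with the smallest p for any difference, beside the targeted genes. The members, lists and tests were chosen with earlier results of these data known. The alternatives were another set of genes, trend and robust options, array weights, quantile normalization, median centring, marker scores as covariates, the compared arrays alone, and each array left out in turn. The tendon and macrophage scores and the omission of 2 arrays together were added after the data were seen. 13 listed genes that are no members were not used here.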

Additional observations from a re-analysis of the deposited data

Results flagged for a closer look

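Mylip, the LXR-induced ubiquitin ligase, drew attention because the effect of TSC22D4 virus on it differed between animals with and without LCN13 virus. The interaction was 0.77 on the log2 scale (SE 0.0964, limma adjusted p = 0.0229). Relative to control Mylip was 0.32 lower with TSC22D4 virus (log2 difference -0.32), and relative to LCN13 virus alone it was 0.44 higher with both viruses (log2 difference 0.44, adjusted p = 0.0113). The interaction did not pass in 7 of 12 fits with 1 array left out, those without control animal 18 or 20, LCN13 animal 22, TSC22D4 animal 25, 26 or 27 or TSC22D4+LCN13 animal 29, with adjusted p-values from 0.0545 to 0.0902 and values between 0.69 and 0.83 over all 12 fits. It also did not pass with the Schwann cell score (0.66, adjusted p = 0.0636) or the tendon score (0.75, adjusted p = 0.0856) as a covariate, or without both control animal 18 and TSC22D4+LCN13 animal 30 (0.72, adjusted p = 0.0827). The difference between both viruses and LCN13 virus alone did not pass with the macrophage score (0.40, adjusted p = 0.0537). The interaction passed for 0.125% of all genes, 29 in number.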

How the results depend on the processing

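No paired analysis was possible because no animal number occurs in more than 1 group. No named gene that passed a comparison changed direction in it under any alternative run, but list medians near 0 did change sign. The fatty acid median ran from -0.07 to 0.21 against 0.09 for TSC22D4 and from -0.11 to 0.03 against -0.03 for LCN13, and the cholesterol median for TSC22D4+LCN13 from -0.0193 to 0.00534 against -0.00743. The number of members past the threshold stayed at 0 under each alternative for TSC22D4 against control, TSC22D4+LCN13 against TSC22D4 and the interaction. For LCN13 against control it became 1 with genes above the median level, trend and robust options, array weights, quantile normalization or the Schwann score, each time Fdps, and ran from 0 to 1 with 1 array left out. For TSC22D4+LCN13 against control it became 3 with genes above the median level (Me1, Elovl5 and Mvd), 6 with the hepatocyte score, and 0 with the adipocyte, Schwann, tendon or macrophage score, with both control animal 18 and TSC22D4+LCN13 animal 30 left out, and with the 6 compared arrays alone, and ran from 0 to 5 with 1 array left out. For TSC22D4+LCN13 against LCN13 it became 1 with array weights, the Schwann score or the tendon score, and 0 with the hepatocyte score, the macrophage score or the 6 compared arrays alone, and ran from 0 to 2 with 1 array left out. It stayed at 2 with the adipocyte score and without both of those animals, with Scap in place of Elovl5. For any difference among the 4 groups it became 2 with genes above the median level or trend and robust options and 0 with the adipocyte, tendon or macrophage score, and ran from 0 to 2 with 1 array left out. With the hepatocyte score it stayed at 1, with Me1 in place of Fdps (limma adjusted p = 0.0375). With the 6 compared arrays alone, the calls of the other named pathway genes and of Mrc1 and Adgre1 were lost, with adjusted p-values from 0.0571 to 0.172, except that of Fbxw7 against control (0.0415). The mean difference of the cholesterol enzymes for LCN13 was -0.0125, against a median of 0.02, which fell below 0 without control animal 18 or LCN13 animal 21 (lowest -0.0061). The cause was not tested, except that fits with a covariate, fewer arrays or 1 array left out have fewer degrees of freedom. The macrophage score ran from -0.30 to -0.13 in control and from 0.13 to 0.75 in TSC22D4+LCN13 arrays. In that comparison the score and the group cannot be told apart. The same holds for TSC22D4+LCN13 against LCN13, where the macrophage score of LCN13 arrays reached 0.11. It also holds for the tendon score in LCN13 against control, from 0.14 to 0.44 against -1.06 to 0.11. Over the alternatives, genes past the threshold of all tested ran from 25 to 177 against 78 for TSC22D4, from 18 to 340 against 197 for LCN13, from 34 to 1151 against 1007 for TSC22D4+LCN13, from 0 to 3 against 0 for TSC22D4+LCN13 against TSC22D4, from 0 to 1320 against 977 for TSC22D4+LCN13 against LCN13, from 2 to 51 against 29 for the interaction and from 282 to 1072 against 773 for any difference. Levels near or below the array median, which Fdps, Pmvk, Lss, Idi1, Sqle, Cyp51 and, outside the members, Hsd17b12 have, limit what can be seen of these genes.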
